A study of Mus musculus with 6 samples.

Results

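The interleukin-6 family was followed through 10 genes, which are the 4 ligand genes Il6, Lif, Osm and Clcf1 and the 6 receptor genes Il6st, Il6ra, Lifr, Osmr, Cntfr and Il11ra1. They were picked by symbol among 55401 deposited genes, with earlier results of these data known, and all 10 had enough counts to be tested. RNA sequencing was performed on brain microglia from untreated 6-week-old mice of the MRL/lpr and MRL/mpj strains, with 3 libraries per strain. Both strains share the MRL background, and MRL/lpr mice carry in addition the lpr mutation of the death receptor gene Fas, which makes them a lupus-prone model. The methods describe a CD11b magnetic selection after a Percoll gradient. The study describes as many mice as libraries in each strain, and the labels do not tie libraries to mice, so the p-values measure the spread between these libraries.

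The cytokines encoded by these ligand genes share a signal transducer, gp130, which is the product of Il6st. Some of these cytokines first bind a receptor of their own. For these cytokines the signalling complex pairs gp130 with a second gp130 or with the LIF or oncostatin M receptor. Janus kinases bound to these chains phosphorylate STAT3, which enters the nucleus and switches on, among others, the gene of its own inhibitor Socs3. In the brain, microglia are a known source of oncostatin M and interleukin-6, and receptors of the family are carried by microglia, astrocytes, neurons and vessels.

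Total counts ran from 45481609 to 49846634 per library. Counts of 4 were far commoner than counts of 5, with 1234 and 254 genes in MRL/lpr replicate 1, so a small count rests on fewer read pairs than its size. Fas itself had 282 to 461 counts in the MRL/lpr and 362 to 432 in the MRL/mpj libraries, and a count per gene does not tell mutant from intact transcripts. The methods describe female mice, but Y chromosome transcripts of 4 genes summed to between 8408 and 15046 counts in each library, and Xist had 8886 to 11319 counts in the MRL/lpr against 27 to 38 in the MRL/mpj libraries. The sex of the animals was not established, and a sex difference between the strains cannot be told apart from strain. In MRL/lpr replicate 3, a single gene, CT010467.1, took 6.38% of the counts, against at most 0.457% in any other library. Summed over 10 microglia markers, libraries reached 22500 to 25160 CPM (counts relative to library size, scaled by TMM) in MRL/lpr and 26720 to 27330 in MRL/mpj, and 8 endothelial markers reached 2010 to 2145 and 2005 to 2060, with none at 0. Within the microglia sum, Cx3cr1 gave 2819 CPM in MRL/lpr replicate 2. It gave 226.4 and 247.3 CPM in MRL/lpr replicates 1 and 3, and 558.3 to 564.2 CPM in MRL/mpj. In such bulk samples, fewer cells of a type and less RNA per cell cannot be told apart.

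In MRL/lpr microglia, all 4 ligand genes and the receptor gene Lifr rose, and the shared receptor gene Il6st fell. The genes Il6ra, Osmr, Cntfr and Il11ra1 did not pass the test. Thus 5 of the 10 genes were higher and 1 was lower at an adjusted p under 0.05, from the quasi-likelihood test of edgeR with Benjamini-Hochberg correction over 19554 genes. Of all genes tested, 11.1% were higher and 9.06% lower, or 20.2% in either direction. At the study's minimum log2 fold change of 1 in size, Il6 was higher and Il6st lower, beside 4.67% of all tested genes higher and 3.66% lower (8.34% together). The median log2 fold change of the 10 genes was 0.46, and that of all tested genes was -0.01. The libraries of the strains did not overlap in CPM for 6 genes that were higher and 1 that was lower, where 19.6% and 19.4% of all tested genes (39% together) were so placed. The study had also listed Il6 and Il6st from these same libraries.

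**Figure D1:**
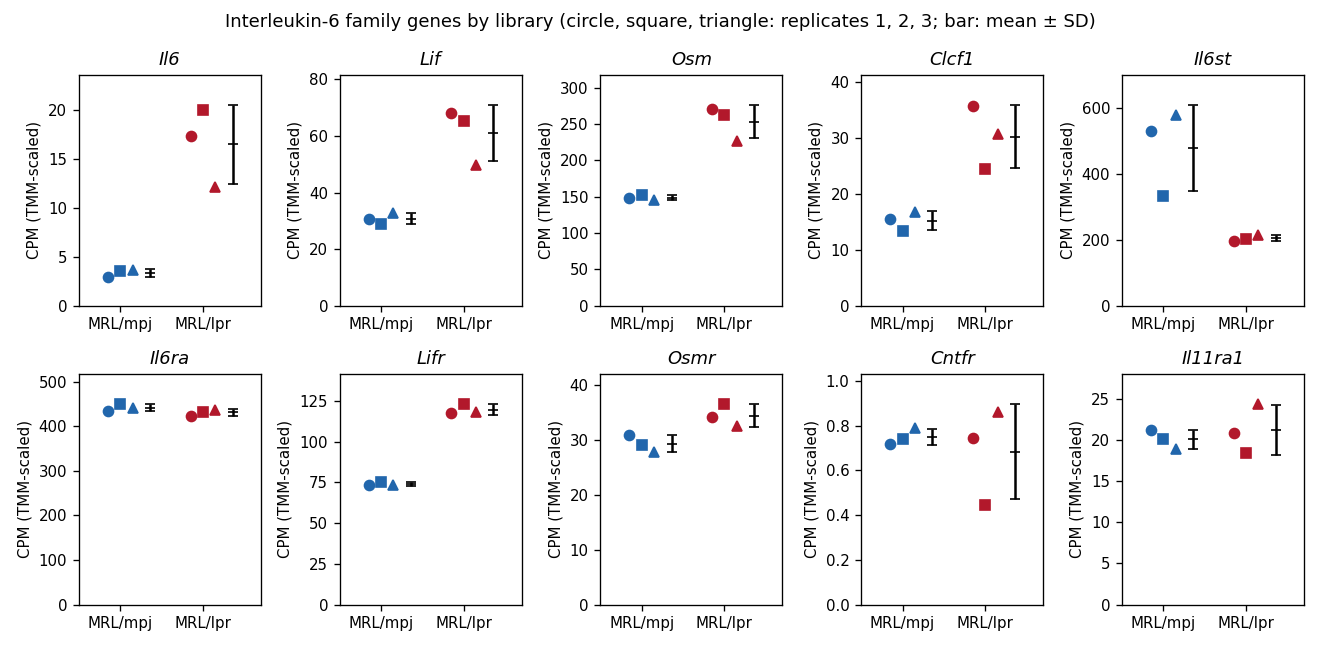
Each panel plots one gene in CPM after TMM scaling, with a linear axis from 0. Circles, squares and triangles are replicates 1, 2 and 3 of MRL/mpj (blue) and MRL/lpr (red), and bars give the mean and SD (n = 3). The libraries of the strains lie apart for the 4 ligand genes, Il6st, Lifr and Osmr, and MRL/mpj replicate 2 is the lowest of its strain for Il6st.

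Among the ligands, Il6 encodes interleukin-6, the founding member, which drives the acute phase response and B cell maturation. The gene lies on chromosome 5 (chr5:30013114-30019981, GRCm38, plus strand). Its 250 bases before the RefSeq start are shown because this promoter is a textbook example of control by AP-1 and NF-kB. Capitals mark the letters TGANTCA, an AP-1 motif in which N is any base, and a match of 10 bases to an NF-kB motif, and both strands were searched. The AP-1 match begins 249 bases and the NF-kB match 44 bases before the start.
Il6 promoter, chr5:30012864-30013113, plus strand, 5′ to 3′: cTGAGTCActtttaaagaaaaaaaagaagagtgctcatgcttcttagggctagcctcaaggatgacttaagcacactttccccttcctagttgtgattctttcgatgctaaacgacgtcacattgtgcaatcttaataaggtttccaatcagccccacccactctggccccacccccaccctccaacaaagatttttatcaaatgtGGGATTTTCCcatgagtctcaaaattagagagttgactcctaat
Among 32851 RefSeq promoter windows of the same length, 6.75% held the first motif and 0.356% held the second, and a match is a description of letters, not of binding.

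Il6 was counted 816, 942 and 506 times in MRL/lpr replicates 1 to 3, and 149, 178 and 190 times in MRL/mpj replicates 1 to 3. All MRL/lpr libraries were above all MRL/mpj libraries, and MRL/lpr replicate 3 was the lowest of its strain. The level was 16.5 ± 4.02 CPM (SD, n = 3) in MRL/lpr and 3.37 ± 0.411 CPM (SD, n = 3) in MRL/mpj. The log2 fold change was 2.29 with a standard error (SE) of 0.21 (edgeR adjusted p = 6.9e-05), a 4.89-fold increase that stood at percentile 98.1 of all tested genes. It was the largest change of the 10 genes.

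Lif encodes leukaemia inhibitory factor, which signals through Lifr and gp130 and is known for keeping stem cells undifferentiated and for shifting neural precursors towards astrocytes. The gene is on the plus strand of chromosome 11 (chr11:4257557-4272514). Its promoter window holds the AP-1 letters at 228 bases before the RefSeq start, and is shown for that match, in capitals, beside the one of Il6.
Lif promoter, chr11:4257318-4257567, plus strand, 5′ to 3′: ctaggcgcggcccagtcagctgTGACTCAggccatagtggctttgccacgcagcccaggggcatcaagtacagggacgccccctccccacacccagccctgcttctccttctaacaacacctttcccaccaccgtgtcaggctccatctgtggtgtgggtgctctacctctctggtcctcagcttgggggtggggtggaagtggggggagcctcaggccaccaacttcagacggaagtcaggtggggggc
Lif was counted 3209, 3068 and 2075 times in MRL/lpr replicates 1 to 3, and 1570, 1451 and 1708 times in MRL/mpj replicates 1 to 3. Again no libraries overlapped, and MRL/lpr replicate 3 was the lowest of its strain. Lif rose by 0.99 on the log2 scale (SE 0.12, edgeR adjusted p = 0.000488).

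Osm encodes oncostatin M, a product of activated macrophages and neutrophils, and lies 16530 bases before Lif on the same strand (chr11:4236420-4241026). It was counted 12720, 12341 and 9495 times in MRL/lpr replicates 1 to 3, and 7594, 7609 and 7583 times in MRL/mpj replicates 1 to 3. The MRL/mpj libraries were nearly equal, and the MRL/lpr libraries were all higher. Osm rose by 0.77 on the log2 scale (SE 0.08, edgeR adjusted p = 0.000118). Clcf1 encodes cardiotrophin-like cytokine factor 1, a ligand of the ciliary neurotrophic factor receptor that supports motor neurons and B cells. It was counted 1678, 1148 and 1282 times in MRL/lpr replicates 1 to 3, and 800, 669 and 871 times in MRL/mpj replicates 1 to 3. These groups did not overlap either, and here MRL/lpr replicate 2 was the lowest of its strain. Clcf1 rose by 0.99 (SE 0.15, edgeR adjusted p = 0.00153). Clcf1 overlaps 9134 bases of AC109138.7, a gene on the same strand with 0 counts in each library, so the counting could have assigned or discarded shared reads.

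Genes of the early response to tissue dissociation moved with the ligands. All 12 of a list that holds Fos, Jun, Egr1, Atf3 and Hspa1a were higher in MRL/lpr, with none at 0. Among all tested genes 11.1% were higher and 9.06% lower, and these shares also stand beside the marker counts below. The summed level of the 12 dissociation genes ran from 44340 to 50670 CPM in MRL/lpr and from 25760 to 27290 CPM in MRL/mpj. The lowest MRL/lpr value was that of replicate 3, as for Il6, Lif and Osm. Of 10 lymphocyte markers, 6 were higher, and their sum was 15.8 to 20.5 CPM against 3.76 to 5.34 CPM, with Cd3e, Trac, Ms4a1 and Klrb1c at 0 in some libraries. Of 10 monocyte and neutrophil markers, 5 were higher and 1 was lower, with sums of 656.6 to 750.9 CPM and 534.6 to 601.2 CPM and none at 0. Their part in the ligand result was not tested.

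Il6st, the gene of gp130, moved the other way. It lies on the plus strand of chromosome 13 (chr13:112464070-112510086), where no other annotated gene overlaps it. MRL/lpr replicates 1, 2 and 3 gave Il6st counts of 9277, 9513 and 9025. Those of MRL/mpj replicates 1, 2 and 3 were 27191, 16619 and 30073. The MRL/lpr libraries lay close together, and all were below the lowest MRL/mpj library, which was replicate 2. The level was 205.1 ± 9.67 CPM (SD, n = 3) in MRL/lpr and 479.8 ± 130 CPM (SD, n = 3) in MRL/mpj. The log2 fold change was -1.23 (SE 0.20, edgeR adjusted p = 0.00801), a 2.34-fold lower level. Without MRL/mpj replicate 2 it was -1.44 (SE 0.08, edgeR adjusted p = 3.37e-05), and without MRL/lpr replicate 3, whose own count is like those of its group, it was -1.26 with an adjusted p of 0.0757.

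**Figure D2:**
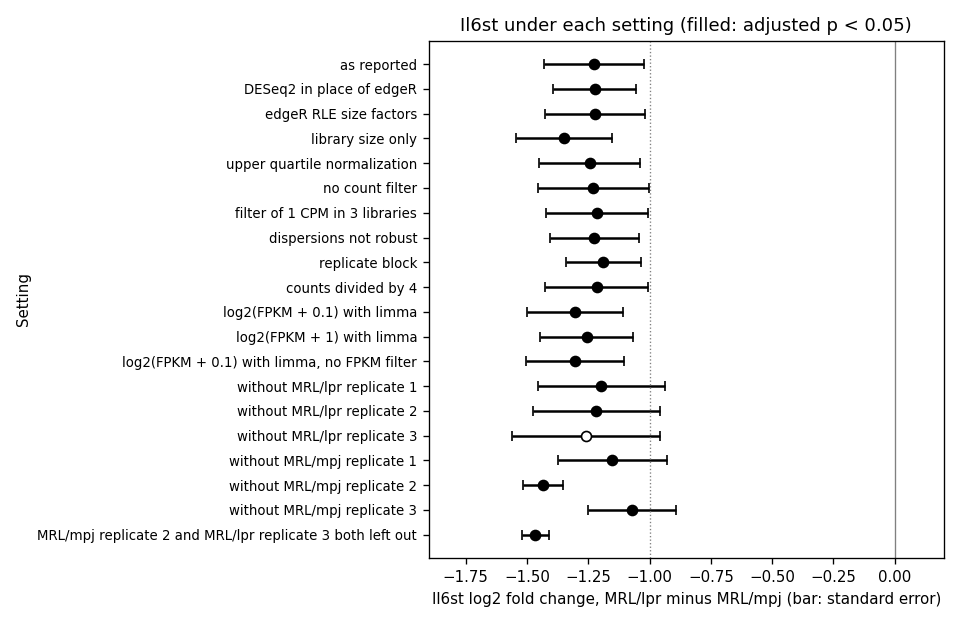
The horizontal axis gives the log2 fold change of Il6st (MRL/lpr minus MRL/mpj) with its standard error for the reported fit and each alternative, listed on the vertical axis. Filled points had an adjusted p under 0.05, and dotted and solid lines mark -1 and 0. Values ran from -1.47 to -1.07, and the single open point is the fit without MRL/lpr replicate 3.

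The Il6st promoter window is shown for comparison with those of Il6 and Lif. It holds none of the AP-1, NF-kB, STAT (TTCNNNGAA) or CRE (TGACGTCA) letters and no TATAAA, and has a GC box (GGGCGG, not capitalised) 93 bases before the RefSeq start, as 32.7% of windows have at least 1.
Il6st promoter, chr13:112463820-112464069, plus strand, 5′ to 3′: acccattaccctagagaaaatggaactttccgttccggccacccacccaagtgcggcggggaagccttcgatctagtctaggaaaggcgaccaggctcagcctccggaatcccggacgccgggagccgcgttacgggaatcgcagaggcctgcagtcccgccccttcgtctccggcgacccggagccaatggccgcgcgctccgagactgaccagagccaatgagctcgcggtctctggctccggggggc
Promoter windows were at hand for 8 of the 10 genes, and the ligand genes Osm and Clcf1 had none to search. Il6 and Lif were the only ones of these 8 with an AP-1 or NF-kB match. The STAT, CRE and TATAAA letters, present in 7.02%, 1.55% and 12.4% of all windows, were in none of theirs. This says only that these letters are not in these windows. At least 1 window each of Lifr, Osmr, Cntfr and Il11ra1 also held a GC box, and those of Il6, Lif and Il6ra held none.

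Some markers of several other cell types were lower in MRL/lpr, as Il6st was, and others of the same lists did not pass the test. Among all tested genes 9.06% were lower and 11.1% higher, and the single astrocyte call is near that share. Some sums lean on single abundant genes. Ttr of the choroid plexus had means of 301.6 CPM in MRL/lpr and 942 CPM in MRL/mpj. In the same order, Stab1 of the border macrophages had 426.8 and 733.9 CPM, and Slc1a3 of the astrocytes 66.1 and 130.1 CPM. Cd163 (border macrophages), Aldh1l1 (astrocytes) and Ccdc153 (ependyma) had log2 fold changes of 0.625, 0.683 and 0.328, short of the threshold. Of 8 ependyma and choroid plexus markers 4 were lower, with sums of 363.9 to 379.9 CPM against 1056 to 1140 CPM and none at 0. Of 8 mural cell and fibroblast markers 4 were lower, with sums of 238.6 to 310.2 CPM against 517.6 to 542.2 CPM, and Lum at 0 in some libraries. Border macrophage markers had 3 of 8 lower, at 465.2 to 505.6 CPM against 781.6 to 807.7 CPM, with none at 0. Of the microglia markers, 3 of 10 were lower. Endothelial markers had 2 of 8 higher and 2 lower, so their sums of nearly equal size hold changes in both directions. Astrocyte, oligodendrocyte and neuron markers had 1, 4 and 2 of 8 lower, with sums of 120.9 to 167.4, 93.8 to 112 and 27.1 to 33.0 CPM in MRL/lpr and 200.5 to 208.1, 145.7 to 176.6 and 45.3 to 50.9 CPM in MRL/mpj, and with Mog and Rbfox3 at 0 in some libraries. In MRL/mpj replicate 2, where Il6st was lowest, the oligodendrocyte, endothelium and lymphocyte sums were also the lowest of the strain, at 145.7, 2005 and 3.76 CPM. The microglia, border macrophage, mural cell, neuron and dissociation sums were the highest there, and the ependyma, astrocyte and monocyte sums lay between those of the other MRL/mpj libraries. Their part in the result was not tested.

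Against the other receptors of the same library, Il6st also stood lower in MRL/lpr, on a scale that no normalization between libraries touches. The level per length of Il6ra was 2.76, 2.75 and 2.60 times that of Il6st in MRL/lpr replicates 1 to 3, and 1.05, 1.74 and 0.977 times in MRL/mpj replicates 1 to 3. The ratio of Lifr to Il6st was 0.615, 0.629 and 0.563 in MRL/lpr and 0.143, 0.233 and 0.131 in MRL/mpj. Il6st made up 20.8% to 21.8% of the summed FPKM of the 6 receptor genes in MRL/lpr and 31.1% to 44.7% in MRL/mpj. Lifr itself rose in MRL/lpr, so its ratio to Il6st and this percentage hold that rise as well as the fall of Il6st. The ratio of Il6ra to Il6st does not hold it. These ratios are given as values, without a test, since an exact permutation test of 3 against 3 libraries stops at a p of 0.1.

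**Figure D3:**
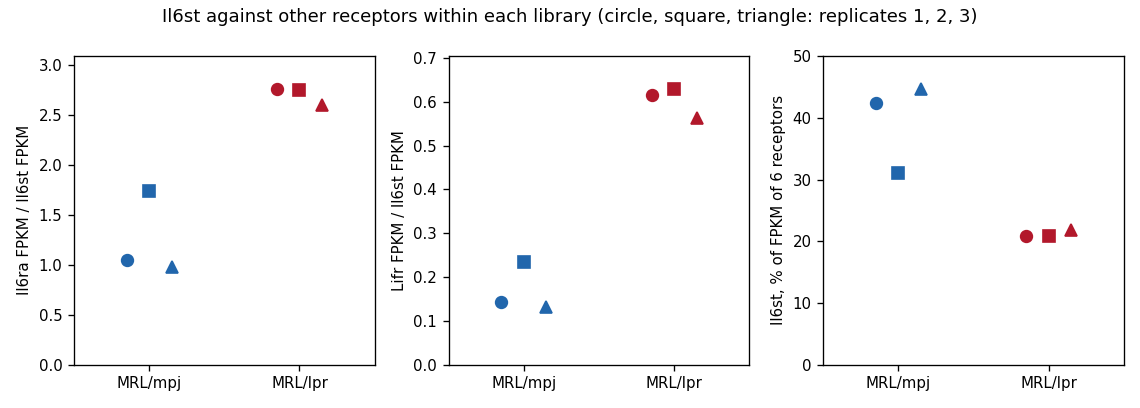
The panels plot, on axes from 0, the FPKM of Il6ra and of Lifr divided by that of Il6st, and Il6st as a percentage of the FPKM of 6 receptor genes. Circles, squares and triangles are replicates 1, 2 and 3. In each panel the MRL/lpr libraries (red) lie apart from the MRL/mpj libraries (blue), of which replicate 2 is the nearest.

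Lifr encodes the receptor that pairs with gp130 for LIF and for the ciliary neurotrophic factor group. It was the one receptor gene that rose. It was counted 5540, 5809 and 4936 times in MRL/lpr replicates 1 to 3, and 3770, 3757 and 3814 times in MRL/mpj replicates 1 to 3, without overlap. Lifr rose by 0.70 on the log2 scale (SE 0.07, edgeR adjusted p = 8.31e-05). Osmr, its neighbour on chromosome 15 at a distance of 215644 bases on the opposite strand, encodes the oncostatin M receptor. Osmr was counted 1602, 1720 and 1357 times in MRL/lpr replicates 1 to 3, and 1587, 1450 and 1447 times in MRL/mpj replicates 1 to 3. In CPM its libraries did not overlap, but the log2 fold change of 0.23 (SE 0.09, edgeR adjusted p = 0.109) did not pass the test.

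Il6ra encodes the interleukin-6 receptor, which binds interleukin-6 before gp130 does. It was counted 19898, 20367 and 18272 times in MRL/lpr replicates 1 to 3, and 22316, 22529 and 22887 times in MRL/mpj replicates 1 to 3. In CPM the groups overlapped, and the log2 fold change was -0.04 (SE 0.06, edgeR adjusted p = 0.731). With scaling by library size only it was -0.16, with the median of all tested genes at -0.13. An antisense gene, Gm42809, overlaps 281 bases of Il6ra, and had 12 to 27 counts per library.

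Cntfr, the receptor of ciliary neurotrophic factor, had the lowest counts of the 10 genes, with 35, 21 and 36 counts in MRL/lpr and 37, 37 and 41 in MRL/mpj. Its log2 fold change was -0.13 with a standard error of 0.48 (edgeR adjusted p = 0.889), and it was 0.10 without MRL/lpr replicate 2. The standard error was the largest of the 10 genes. Il11ra1, the interleukin-11 receptor gene, had 983, 867 and 1022 counts in MRL/lpr and 1093, 1005 and 986 in MRL/mpj, with a log2 fold change of 0.08 (SE 0.12, edgeR adjusted p = 0.726) that was -0.05 with scaling by library size only. This gene is uncertain, since its annotated span overlaps 6 other genes and it has close copies, of which Il11ra2 had 52 to 282 counts per library.

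Per gene length, in FPKM (counts per length of the gene and depth of the library), Osm was the most abundant of the 10 genes in each strain, at 95.6 ± 11.5 (SD, n = 3) in MRL/lpr and 60.8 ± 1.37 (SD, n = 3) in MRL/mpj. Oncostatin M transcripts held 78.7% to 80.4% of the summed FPKM of the 4 ligand genes in MRL/lpr and 82.7% to 85.2% in MRL/mpj. The order after Osm was Il6ra, Il6st, Lif and Lifr in each strain. In MRL/lpr, Il6ra at 42.7 ± 0.95 FPKM (SD, n = 3) stood above Il6st at 15.8 ± 0.28 FPKM (SD, n = 3) in every library. In MRL/mpj the ranges of Il6ra and Il6st overlapped, at 47.5 ± 0.929 and 40.2 ± 10.9 FPKM (SD, n = 3). Lif and Lifr overlapped in each strain. Lower in the order, Clcf1, Il6 and Il11ra1 followed in MRL/lpr, with overlap between neighbours. In MRL/mpj the next were Il11ra1 and Clcf1, which overlapped, then Osmr, and Il6 came after Osmr at 1.28 ± 0.159 FPKM (SD, n = 3). In MRL/lpr Il6 stood at 5.83 ± 1.57 FPKM (SD, n = 3), above Osmr. Cntfr was the lowest in each strain. The summed FPKM of the 4 ligand genes was 102.6 to 131.9 in MRL/lpr and 71.9 to 73.2 in MRL/mpj.

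**Figure D4:**
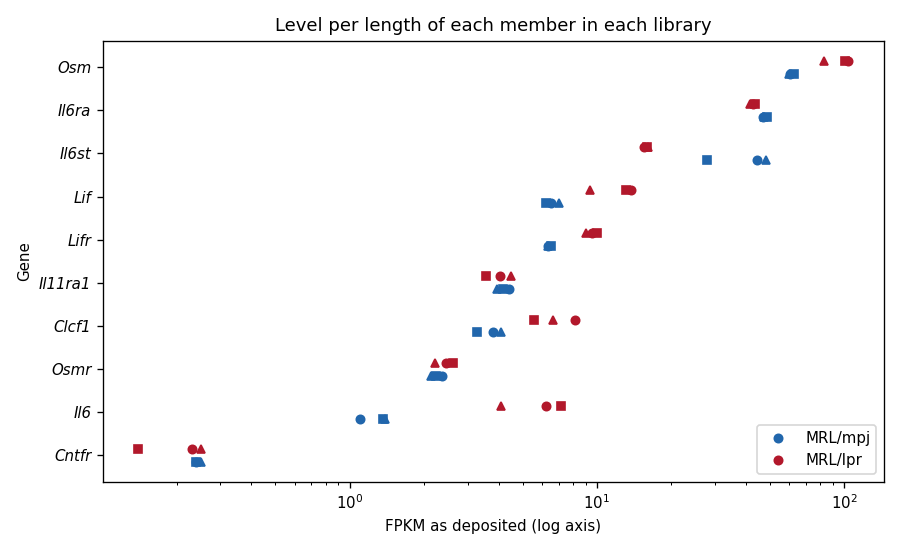
The horizontal axis is the deposited FPKM on a log scale, and each row is one gene, ordered by its MRL/mpj mean. Circles, squares and triangles are replicates 1, 2 and 3 of MRL/mpj (blue) and MRL/lpr (red). Osm lies furthest to the right in each strain, Il6 moves from about the bottom of the order in MRL/mpj to above Osmr in MRL/lpr, and Il6st moves to the left.

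The genes whose log2 CPM followed Il6st most closely over the 6 libraries were Fgd5, Mettl5 and Cd180, with Pearson correlations of 0.9956, 0.9954 and 0.9934 among 11798 genes compared. Each also had its lowest MRL/mpj count in replicate 2, but their log2 fold changes were smaller, at -0.16, -0.41 and -0.39, and that of Cd180 passed the test (edgeR adjusted p = 0.00453). For Il6 they were Wee1, Dna2 and Cish, with correlations of 0.9998, 0.9997 and 0.9992. These values describe 6 libraries of 2 strains and carry no test.

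Downstream of the receptors, 5 of 11 genes of kinases, STATs and adaptors were higher and none was lower. Their median log2 fold change was 0.30. Of all tested genes, 11.1% were higher and 9.06% lower, and no list was tested as a set. Jak1, the main kinase on gp130, rose by 0.53 on the log2 scale (SE 0.06, edgeR adjusted p = 0.000234), from 263 ± 7.73 to 378.6 ± 10.9 CPM (SD, n = 3). Tyk2 rose by 0.28 and Stat3 by 0.30, at edgeR adjusted p-values of 0.0144 and 0.00594. Jak2 had a log2 fold change of 0.09 (edgeR adjusted p = 0.586). With scaling by library size only, and in the FPKM fits with pseudocounts of 0.1 and 1, 3 of these genes were higher and 1, Gab1, was lower, and Stat3 and Tyk2 did not pass. Without an FPKM filter 2 were higher and Gab1 was lower.

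Of 8 inhibitor genes, 2 were higher and none was lower, with a median log2 fold change of 0.16. Among all tested genes 11.1% were higher and 9.06% lower, so a count this small is not read as a result about the list. Socs3, the feedback inhibitor that binds gp130 itself, rose by 0.38 on the log2 scale (SE 0.06, edgeR adjusted p = 0.00201), from 806.1 ± 15.8 to 1047 ± 58.2 CPM (SD, n = 3). The other was Cish, a STAT5-induced relative of Socs3, which rose by 0.94. In the 3 FPKM fits Cish passed and Socs3 did not, and Ptpn6 was lower with library size only and in 2 of these fits. Of 6 genes for shedding and trafficking of the receptors, 1 was higher, near the share of all tested genes, and the median was -0.03. The higher gene was Rhbdf2, a partner of the protease that releases soluble interleukin-6 receptor. It rose by 1.10 (edgeR adjusted p = 2.41e-05). The genes of the proteases, Adam10 and Adam17, had log2 fold changes of -0.13 and -0.02 and did not pass the test.

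Of 18 genes listed as targets of gp130 and STAT3 signalling, 10 were higher and none was lower, and their median log2 fold change was 0.97. The shares of all tested genes were 11.1% higher and 9.06% lower. Pim1, a survival kinase, rose by 1.83 on the log2 scale (SE 0.12, edgeR adjusted p = 7.81e-06). Cebpb, a transcription factor first known as an activator of Il6, rose by 1.08, Junb by 1.08 and the adhesion gene Icam1 by 1.03. Junb also belongs to the dissociation list, and these genes answer to other signals as well. Ccnd1 and Lcn2 of the same list had log2 fold changes of -0.02 and 0.01, and Timp1, which had 0 counts in MRL/lpr replicate 3, had -1.29 (edgeR adjusted p = 0.449).

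Of 8 regulators of the Il6 transcript, 6 were higher and none was lower, while Rc3h2 was lower with scaling by library size only. Rela lost its call with library size only and without MRL/mpj replicate 1 or 2. In the FPKM fits both Rela and Nfkb1 did not pass. Nfkbiz, a nuclear cofactor of NF-kB needed for Il6 induction, rose by 1.73 (SE 0.08, edgeR adjusted p = 1.14e-06). Zc3h12a, a nuclease that degrades Il6 mRNA, rose by 1.65 (SE 0.06, edgeR adjusted p = 4.66e-07). Arid5a, which stabilises this mRNA, rose by 0.77, and Zfp36, which destabilises it and is also on the dissociation list, by 0.73. Genes of opposite effect on the Il6 transcript were thus higher in the same libraries. For all tested genes the shares were 11.1% higher and 9.06% lower. Of the 11 other ligands and receptors of the family, 6 had enough counts to be tested and 0 passed in edgeR, with 0 at an unadjusted p under 0.05 and 0 called by DESeq2. Without MRL/lpr replicate 1, 1 gene, Ctf2, entered the test and was called higher, with 0, 46 and 38 counts in MRL/lpr replicates 1 to 3 and 0 in each MRL/mpj library. Ebi3 was the most abundant, with 597, 609 and 785 counts in MRL/lpr and 864, 717 and 760 in MRL/mpj. Il11 had 0 to 12 counts and Il31 had 0 counts in each library.

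**Figure D5:**
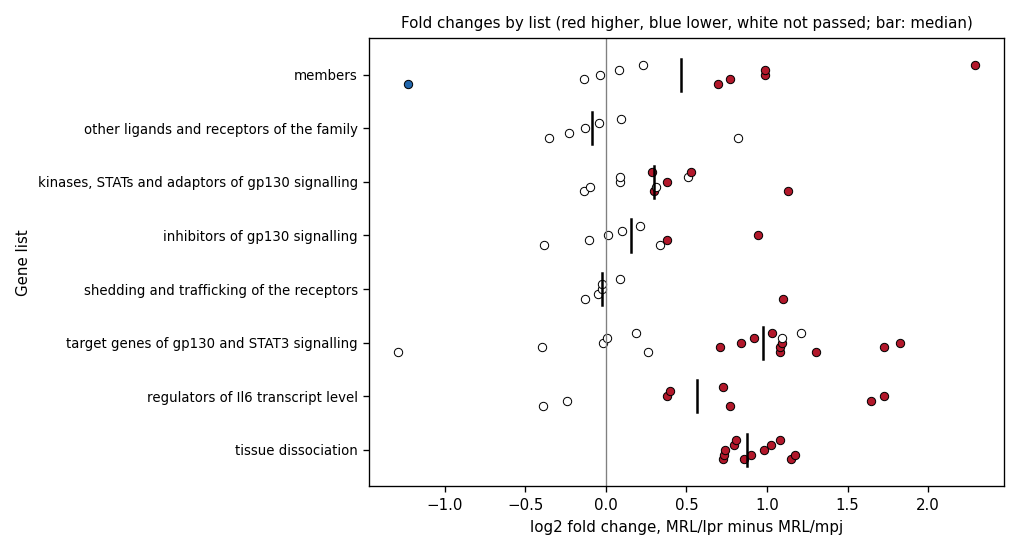
Each point is one tested gene, placed by its log2 fold change (MRL/lpr minus MRL/mpj), with gene lists on the vertical axis and black bars at the list medians. Red genes were higher, blue genes were lower and white genes did not pass the test. Il6st is the single blue point, and the 12 dissociation genes are all red.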

How the data were processed

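Microglia libraries of 3 MRL/lpr and 3 MRL/mpj preparations were grouped by their titles. Per the labels, the authors trimmed reads with cutadapt 1.9.3 and aligned them with HISAT2 2.0.4 to GRCm38, and Cuffdiff 2.2.1 and Cufflinks are also listed; the tool behind the counts is not given in the sources used here. The authors deposited raw counts per gene and, per library, FPKM values, which divide counts by gene length and depth. Symbols and positions came from GENCODE M21 (GRCm38), which matched 55141 of 55401 identifiers, and promoter sequences from RefSeq (GRCm38.p6).

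Counts were filtered with filterByExpr (minimum count 10, minimum total 15), scaled by TMM and tested with edgeR 4.0.16 in R 4.3.3 (robust quasi-likelihood test, no covariate, Benjamini-Hochberg adjustment over 19554 genes, threshold 0.05). Standard errors are the log2 fold change divided by the root of the F statistic. DESeq2 1.42.0, limma 3.58.1 on log2 FPKM (pseudocounts 0.1 and 1) and other settings were alternatives. The steps were tested on simulated data. Named genes are the 10 members, Jak1, Jak2, Tyk2, Stat3, Socs3, up to 4 called genes per pathway list with the smallest adjusted p among those changed by a log2 fold of 1 or more, and the 3 genes most like Il6st and Il6 among those with at least 100 counts in each library. Ebi3, Il11, Il31, Adam10, Adam17, Ccnd1, Lcn2, Timp1, Arid5a, Zfp36, Gab1, Ptpn6, Rc3h2, Rela, Nfkb1 and Ctf2 were picked with their values known. So were the markers Ttr, Stab1, Slc1a3, Cd163, Aldh1l1, Ccdc153 and Cx3cr1. 1 gene within the rule is left out and not reported here. The members and lists were chosen with earlier results of these data known.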

Additional observations from a re-analysis of the deposited data

How the results depend on the processing

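Each of the 10 genes was refitted under up to 19 alternatives, 1 of them (MRL/mpj replicate 2 and MRL/lpr replicate 3 both left out) chosen after seeing the data. Il6, Lif, Osm, Clcf1 and Lifr kept their direction and stayed past the threshold in all 19, and Il6ra and Osmr kept theirs and stayed short of it. Il6st lost its call without MRL/lpr replicate 3 (log2 fold change -1.26, adjusted p = 0.0757 from edgeR), in a range of -1.44 to -1.07 over the fits without 1 library, and 0 members were then lower in place of 1; the cause was not tested. Cntfr, at -0.13, ran from -0.326 to 0.098 (without MRL/lpr replicate 2) over the fits without 1 library and from -0.336 to 0.098 over all its alternatives, and could not be fitted after the 2 alternatives that removed it as too low. Il11ra1, at 0.08, turned to -0.047 with library size only, to -0.048, -0.039 and -0.048 in the 3 FPKM fits, and to -0.029 with MRL/lpr replicate 3 and MRL/mpj replicate 2 left out; without 1 library it ran from -0.028 (without MRL/lpr replicate 3) to 0.172. Over all genes, 2178 were higher and 1772 lower. Library size only gave 1634 and 2790 and moved the median log2 fold change from -0.01 to -0.13, FPKM without a filter gave 1375 higher genes, and fits without 1 library gave 1177 (without MRL/mpj replicate 1) to 1971 lower genes. With a replicate block, 1754 genes were higher and 1309 lower, and Il6st had a log2 fold change of -1.19 (edgeR adjusted p = 0.00461). The block changed no call of the 10 genes. Same-numbered libraries had correlations of deviations of -0.05, -0.03 and -0.06, so no deviation shared by number was seen. Such values cannot tell whether same-numbered libraries were handled together. Of 304 counts under alternatives, 284 were equal to the reported one or within 1.5 times of it. Several reported list counts were 0, for which only another 0 could be scored as unchanged, so this tally says little about them. Cntfr, with 21 to 41 counts, had the largest standard error of the 10 genes (0.48).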
